A study of Mus musculus with 16 samples.

Results

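The miR-29 family is described here through its 3p arms, miR-29a-3p, miR-29b-3p and miR-29c-3p, which were taken by name (mmu-miR-29a-3p, mmu-miR-29b-3p and mmu-miR-29c-3p, with mmu for mouse) and make up 3 of the 941 mature mouse miRNA names in each raw read count table. They were read in 16 small RNA libraries, 12 of RAW264.7 cells and 4 of extracellular vesicles (EVs). RAW264.7 is a macrophage line from a male BALB/c mouse. Per the labels, all 12 cell cultures were treated with concanavalin A (Con A), a lectin from jack beans that stimulates T cells and, injected into mice, causes hepatitis, for 16 h after an 8 h preincubation, and what differed was the preincubation. Cells had received EVs from the serum of Con A-injected mice (serum Con A EVs), EVs from Con A-treated RAW264.7 cells (RAW Con A EVs), EVs from saline-treated RAW264.7 cells (RAW saline EVs), or PBS, with 3 libraries in each group and EVs given at 6e9 particles per mL. The labels give no Con A dose for these cells, and no cells that received serum saline EVs are among the samples. The 4 EV libraries, 1 each, are of serum Con A EVs, serum saline EVs, RAW Con A EVs and RAW saline EVs. Serum came from female BALB/c mice of 8 to 9 weeks, 9 h after intravenous Con A at 15 mg/kg or after saline, and the labels do not say how many mice a library holds. RAW EVs came from medium of cells cultured for 24 h with 25 µg/mL Con A or with saline. Nothing in the labels ties the 3 libraries of a group to separate cultures, and the p-values below therefore measure the spread between libraries only, which may be technical.

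A miRNA guides an Argonaute protein to messenger RNAs that pair with its seed, which lowers their translation and stability. The miR-29 family is known for repressing collagens and other matrix proteins in fibrosis, including in liver stellate cells, and for targeting the DNA methyltransferases Dnmt3a and Dnmt3b. In mice it is made from 4 hairpins in 2 clusters, Mir29a with Mir29b-1 on chromosome 6 and Mir29b-2 with Mir29c on chromosome 1, and both miR-29b hairpins give the same 3p arm. The 3 mature 3p sequences are shown because they set what the read counts can tell apart. They are given 5′ to 3′ from RefSeq (GRCm38.p6), with the seed, bases 2 to 8, in capitals.
miR-29a-3p: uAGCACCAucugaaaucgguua
miR-29b-3p: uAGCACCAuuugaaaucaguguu
miR-29c-3p: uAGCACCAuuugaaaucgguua
The seed AGCACCA was the same in all 3 members and in no other of the 1679 mature mouse miRNAs in that table (3 of 1679, 0.179%). Counting positions from 1 at the 5′ end, miR-29c-3p differed from miR-29a-3p by 1 base, C10U, over 22 bases. Set against miR-29a-3p over 22 bases, miR-29b-3p carried C10U, G18A, U21G and A22U, and it is 23 bases long. Its 3′ end, AGUGUU, which is known from human cells as a signal for nuclear import, ended 2 of the 1679 mature sequences (0.119%), miR-29b-3p and miR-92b-5p. Since a single base separates miR-29a-3p from miR-29c-3p and the labels do not state how many mismatches the alignment allowed, the low counts of miR-29c-3p are uncertain beside those of miR-29a-3p.

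The cell libraries held 174510 to 403332 miRNA reads. The EV libraries held 334285 (serum Con A), 132130 (serum saline), 134884 (RAW Con A) and 114791 (RAW saline) reads. Before the EV results are given, 2 libraries have to be set apart. In the library of serum Con A EVs, 2 miRNAs, miR-148a-3p (42.6%) and miR-122-5p (39.2%), held most reads. In the library labelled RAW Con A EVs, the hepatocyte miRNA miR-122-5p was the most abundant miRNA with 20.8% of reads, against 0.353% in RAW saline EVs, while the 3 PBS cell libraries held 8.99 to 25.9 CPM (reads scaled to a common library total). The summed level of 5 myeloid markers was 40331 CPM in RAW Con A EVs and 112840 CPM in RAW saline EVs, with none at 0. Most of each sum was miR-21a-5p, at 27928 and 104398 CPM, and miR-142a-3p was also lower in RAW Con A EVs (89.0 against 331 CPM). The other markers were higher in RAW Con A EVs, namely miR-146a-5p (11521 against 7962 CPM), miR-155-5p (719 against 122 CPM) and miR-223-3p (74.1 against 26.1 CPM). The sum therefore does not speak for the markers as a set. The part that the miR-122-5p, miR-148a-3p or myeloid marker values have in the ratios below was not tested. Nor was it tested whether the library labelled RAW Con A EVs holds what its label says, which bears on every ratio with it. Most ratios of miR-29a-3p and miR-29b-3p are therefore also given relative to the reads left without miR-122-5p and miR-148a-3p. In the cells, the myeloid markers summed to 264142 to 320366 CPM, miR-122-5p reached 184.6 to 265.8 CPM after serum Con A EVs, and 3 erythrocyte markers summed to 87.4 to 112.1 CPM after serum Con A EVs and to 0 in PBS cells. In bulk libraries, fewer cells or vesicles of a kind and less miRNA in each cannot be told apart.

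The family did not pass the test in any comparison of cells. Of the 3 members, 0 passed an adjusted p of 0.05 in any of the 5 comparisons (edgeR's quasi-likelihood test, Benjamini-Hochberg adjustment over 229 miRNAs), although many other miRNAs did. The share of all tested miRNAs called was 21.4% for serum Con A EV cells against PBS cells, 11.4% for RAW Con A EV cells against PBS cells, 14% for RAW saline EV cells against PBS cells, 3.49% for RAW Con A EV cells against RAW saline EV cells and 34.9% for serum Con A EV cells against RAW Con A EV cells. Leaving out 1 library took the count for RAW Con A EV cells against PBS cells to 10 to 17 miRNAs, against 26, and that for RAW Con A EV cells against RAW saline EV cells to 1 to 8, against 8. The joint test of any difference among the 4 groups called 41.5% of miRNAs, and the members had adjusted p of 0.165 (miR-29a-3p), 0.905 (miR-29b-3p) and 0.953 (miR-29c-3p). By unadjusted p under 0.05, 1 member, miR-29a-3p, was lower in serum Con A EV cells against both PBS and RAW Con A EV cells, where 32.3% and 42.4% of all 229 miRNAs had such a p. In DESeq2, 0 members were called as well.

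miR-29a-3p was by far the most read member. It stood at ranks 26 to 28 of all miRNAs in the cell libraries. Its levels, as CPM scaled by trimmed mean of M-values (TMM), were 6382, 5721 and 6396 in serum Con A EV cells, 6179, 7045 and 6975 in RAW Con A EV cells, 6555, 6502 and 6627 in RAW saline EV cells, and 6585, 6666 and 7334 in PBS cells. All 3 serum Con A EV libraries lay below all 3 PBS libraries, while the other 2 EV-treated groups overlapped PBS cells. As CPM without TMM the separation was not complete, with 6261 to 6979 CPM in serum Con A EV cells and 6804 to 7551 CPM in PBS cells. Groups that did not overlap in this comparison made up 36.2% of the 229 miRNAs, and 16.6% were lower in all 3 libraries. The means were 6166 ± 386 in serum Con A EV cells and 6862 ± 411 in PBS cells (SD, n = 3 each), a fold of 0.898 with a 95% interval of 0.822 to 0.981. On the log2 scale this was a difference of -0.15 with a standard error of 0.063 and an adjusted p of 0.0784 in edgeR, so the difference did not pass the threshold. Upper-quartile scaling in place of TMM brought it past the threshold, at -0.22 and an adjusted p of 0.0186. Over all 229 miRNAs, the median log2 difference in this comparison was 0.007. The hepatocyte and erythrocyte miRNAs given above were higher in the same 3 libraries than in PBS cells, and their part in the value of miR-29a-3p was not tested.

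The remaining comparisons of miR-29a-3p were smaller or less certain. Its mean was 6733 ± 481 in RAW Con A EV cells, a log2 difference from PBS cells of -0.02 (95% interval -0.15 to 0.10, edgeR adjusted p = 0.858). It was 6561 ± 62.6 in RAW saline EV cells, a log2 difference from PBS cells of -0.07 (-0.19 to 0.06, edgeR adjusted p = 0.527). With scaling by library size alone, the value for RAW saline EV cells became -0.18 with an adjusted p of 0.0429 in edgeR, while the median of all miRNAs in this comparison shifted by -0.10. Whether the EV-producing macrophages had seen Con A made a log2 difference of 0.04 in recipient cells (-0.09 to 0.17, edgeR adjusted p = 0.852). Serum Con A EV cells against RAW Con A EV cells gave -0.13 (-0.26 to -0.002, edgeR adjusted p = 0.112), which became -0.20 with an adjusted p of 0.0245 without replicate 1 of the RAW Con A EV cells, the lowest of its group. The same comparison became -0.07 with an adjusted p of 0.508 without replicate 2 of the serum Con A EV cells, and -0.09 and -0.10 with adjusted p of 0.393 and 0.343 without replicates 2 and 3 of the RAW Con A EV cells, in edgeR throughout. Scaled by library size alone, this comparison turned to 0.08, with the median of all miRNAs shifted by 0.22. In order of TMM-scaled mean, PBS cells were followed by RAW Con A EV, RAW saline EV and serum Con A EV cells. Of the neighbours in that order only the last pair had means further apart than the larger of the 2 SDs. The order depended on scaling. As CPM without TMM, PBS cells (7055) were followed by serum Con A EV (6682), RAW Con A EV (6307) and RAW saline EV cells (6235).

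**Figure D1:**
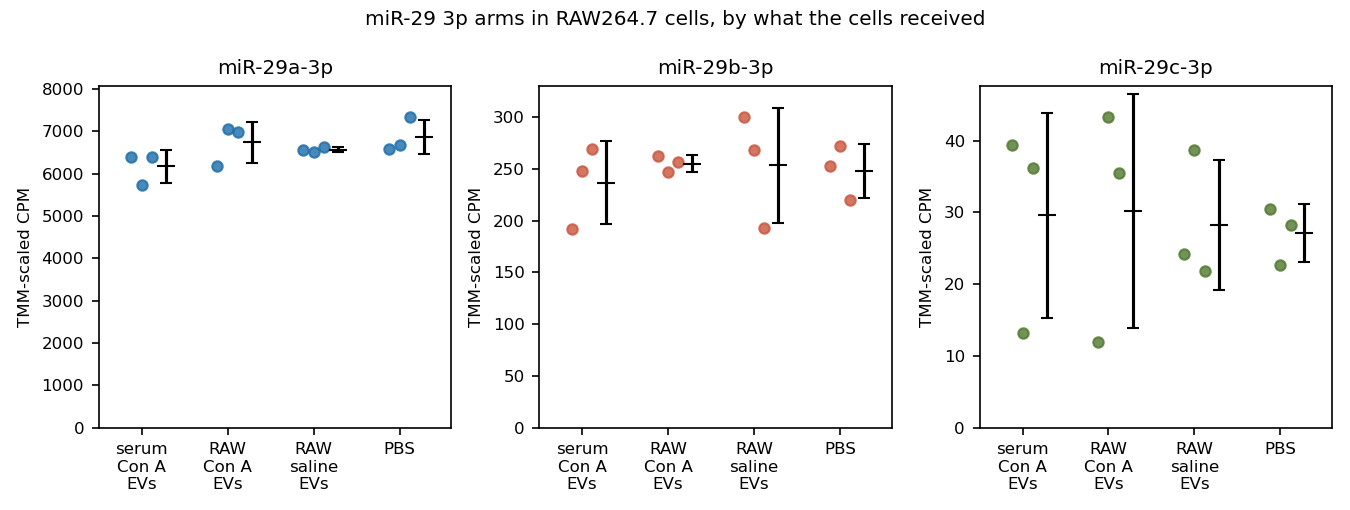
TMM-scaled CPM of each 3p arm in the 12 RAW264.7 cell libraries (points, 3 per group), with the mean and SD of each group in black; every axis starts at 0. For miR-29a-3p the 3 serum Con A EV libraries lie at 5721 to 6396 CPM and the 3 PBS libraries at 6585 to 7334 CPM, while the groups of miR-29b-3p and miR-29c-3p overlap.

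miR-29b-3p was present at far lower counts. Its TMM-scaled CPM were 191.9, 248.0 and 269.5 in serum Con A EV cells, 262.4, 246.7 and 256.4 in RAW Con A EV cells, 300.1, 267.8 and 192.5 in RAW saline EV cells, and 252.4, 272.1 and 220.1 in PBS cells. Every EV-treated group overlapped the PBS cells. The group means were 236 ± 40.1, 255 ± 7.95, 253 ± 55.3 and 248 ± 26.2 CPM in the same order (SD, n = 3 each). The log2 differences from PBS cells were -0.08 (95% interval -0.40 to 0.23) for serum Con A EV cells, 0.04 (-0.29 to 0.37) for RAW Con A EV cells and 0.04 (-0.29 to 0.36) for RAW saline EV cells, with edgeR adjusted p from 0.754 to 0.907. RAW Con A EV cells against RAW saline EV cells gave 0.003 (-0.33 to 0.33), and serum Con A EV cells against RAW Con A EV cells gave -0.12 (-0.45 to 0.20). The sign of the first value turned on leaving out 1 library and the signs of the other 4 under another scaling, so they carry no direction.

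miR-29c-3p was near the limit of detection. It had 2 to 15 reads per library, and 3 reads corresponded to 7.44 to 17.2 CPM. Its TMM-scaled CPM were 39.4, 13.2 and 36.2 in serum Con A EV cells, 11.9, 43.3 and 35.5 in RAW Con A EV cells, 24.2, 38.7 and 21.9 in RAW saline EV cells, and 30.5, 22.7 and 28.3 in PBS cells. All groups overlapped, with means of 29.6 ± 14.3, 30.2 ± 16.3, 28.2 ± 9.09 and 27.1 ± 4.02 CPM in that order (SD, n = 3 each). The log2 difference of serum Con A EV cells from PBS cells was 0.17 with a 95% interval of -0.67 to 1.02, so at this depth a doubling could not be told from no change. The other 4 differences lay between -0.10 and 0.28, with edgeR adjusted p from 0.815 to 0.925.

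**Figure D2:**
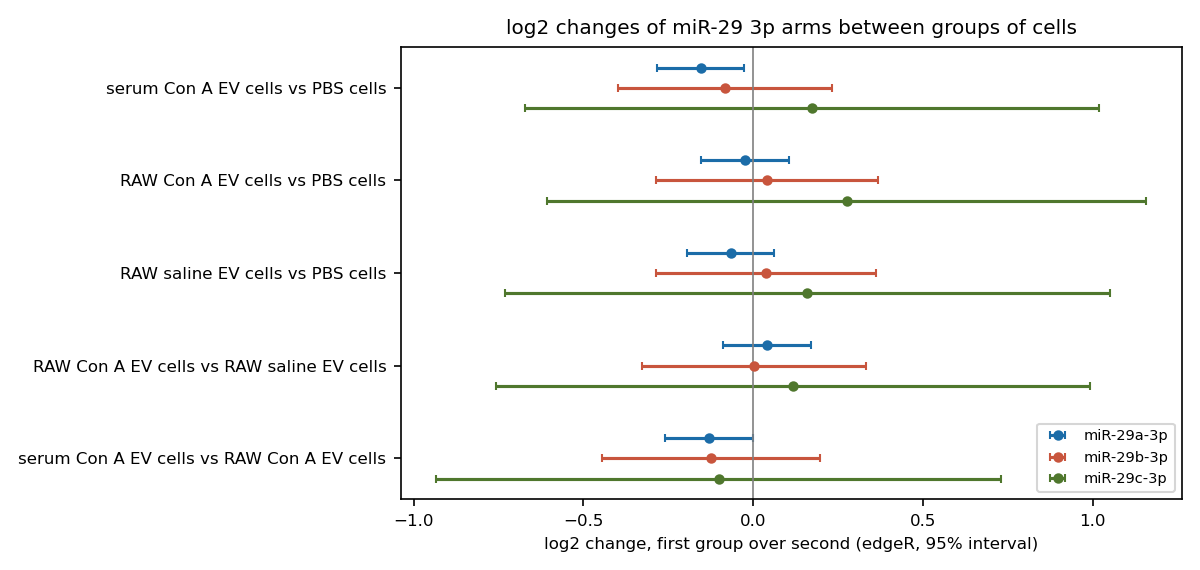
Log2 differences of the 3 members in the 5 comparisons of cell groups, first-named group over second, from edgeR with 95% intervals. The intervals of miR-29a-3p are the narrowest and span -0.28 to -0.03 for serum Con A EV cells against PBS cells. Those of miR-29c-3p are the widest. Over the 5 comparisons their lowest bound is -0.93 and their highest, in another comparison, is 1.16.

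The spread of each member followed its depth. Over the 12 cell libraries the coefficient of variation of the TMM-scaled level was 6.36% for miR-29a-3p, where counting alone would give 2.39%. It was 13.0% for miR-29b-3p, with 12.3% from counting, and 35.6% for miR-29c-3p, with 40.3% from counting. The counting values are the root of the mean of 1 over the reads of each library. Libraries with few reads, down to 2 for miR-29c-3p, raise them, so 40.3% is likely too high. Among the 70 miRNAs at 1000 CPM or more, whose median coefficient of variation was 7.89%, miR-29a-3p was the 19th least variable.

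miR-29a-3p held nearly all reads of the family in every cell library. Of the reads of the 3 members, miR-29a-3p held 95.3% to 96.9%, miR-29b-3p 2.81% to 4.36% and miR-29c-3p 0.185% to 0.596% over the 12 libraries. No difference between groups in these shares passed an exact permutation test of the between-group spread (adjusted p = 0.966 for each of 3 members over 15400 arrangements, where 6.49e-05 is the smallest p possible). These shares do not depend on how libraries are scaled. A read of a mature miRNA covers the whole molecule, so the members can be compared without a length correction, but how efficiently each sequence entered the library was not measured. As a whole, the 3 members held 0.620% to 0.781% of miRNA reads in cells.

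By all reads, the family held a smaller share in the EV libraries than in cells. The shares were 0.259% in serum Con A EVs, 0.522% in serum saline EVs, 0.208% in RAW Con A EVs and 0.180% in RAW saline EVs. Without the 2 miRNAs that held most reads of serum Con A EVs, miR-29a-3p stood at 13520, 6439, 2800 and 1676 CPM in that order. In the 12 cell libraries it had 5937 to 7551 CPM by all reads. On that scale miR-29a-3p was lower than in cells only in the RAW EV libraries. It was above the cell range in serum Con A EVs and within it in serum saline EVs. The order of the members was as in cells. miR-29a-3p had 822 reads (2459 CPM, rank 22) in serum Con A EVs, 664 reads (5025 CPM, rank 32) in serum saline EVs, 270 reads (2002 CPM, rank 44) in RAW Con A EVs and 188 reads (1638 CPM, rank 52) in RAW saline EVs. miR-29b-3p had 37 reads (111 CPM), 19 reads (144 CPM), 9 reads (66.7 CPM) and 18 reads (157 CPM) in the same order of libraries. miR-29c-3p had 6, 7, 2 and 1 reads in that order, which is 17.9, 53.0, 14.8 and 8.71 CPM, where 3 reads correspond to 8.97, 22.7, 22.2 and 26.1 CPM. With 1 library per kind of EV there is no replicate check and no test. The intervals below are exact 95% intervals for a ratio of counts, and they cover counting error only, since reads without molecular identifiers are not independent molecules.

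miR-29a-3p made up a smaller part of the reads in serum Con A EVs than in serum saline EVs, yet it ranked higher. The ratio of CPM, serum Con A EVs over serum saline EVs, was 0.489 (0.441 to 0.543). Past 2-fold lower was the state of 81.5% of the 124 miRNAs with at least 50 reads in the 2 libraries, with a median ratio of 0.196, so on the log2 scale miR-29a-3p stood 1.32 above that median. The direction depended on what levels were relative to. Without miR-122-5p and miR-148a-3p, miR-29a-3p stood at 13520 CPM of the remaining reads in serum Con A EVs and at 6439 CPM in serum saline EVs, a log2 ratio of 1.07. It was 1.14 with TMM and 1.26 without the 10 most abundant miRNAs of the libraries. miR-29b-3p had a ratio of 0.770 (0.431 to 1.42) by all reads and a log2 ratio of 1.72 without miR-122-5p and miR-148a-3p. miR-29c-3p had a ratio of 0.339 (0.0941 to 1.18) by all reads and a log2 ratio of 0.54 without those 2 miRNAs. In the authors' deposited table the normalized signal of miR-29a-3p was 411 in serum Con A EVs and 5.27 in serum saline EVs, a 78.0-fold ratio, after division of the reads by 2 and by 126, whole numbers whose meaning is not stated. Per the labels a plant miRNA was added to the EV lysates as a control, and whether the divisors count its reads was not tested, so what this ratio is relative to is unknown. Of the members, 2 had at least 50 reads in this pair and 1, miR-29a-3p, was past 2-fold lower.

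**Figure D3:**
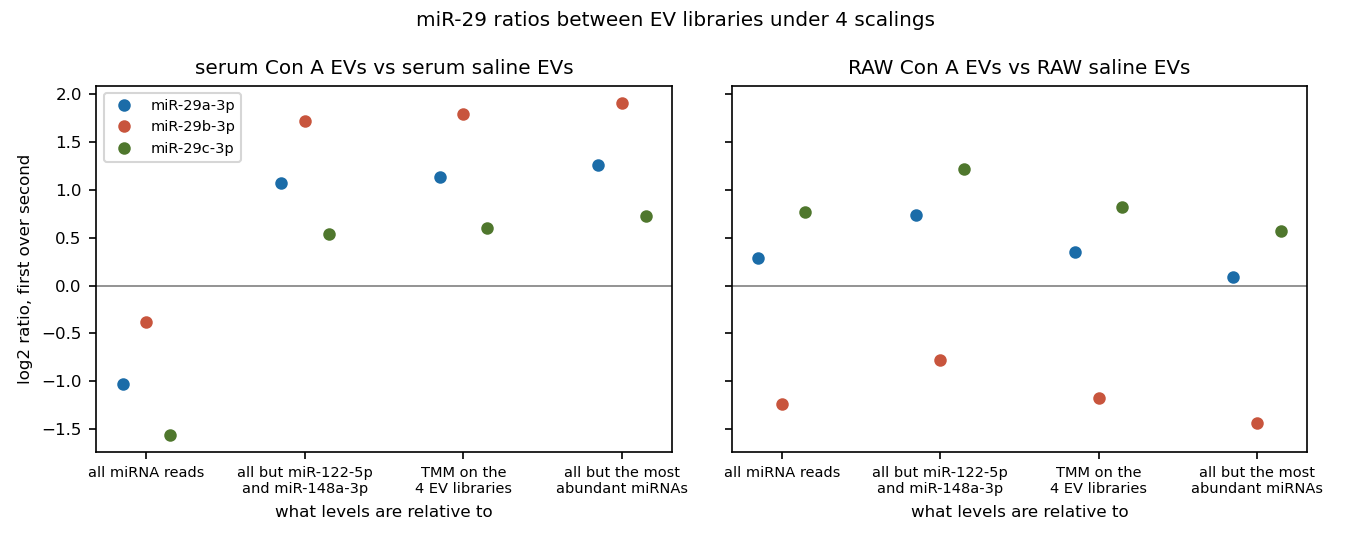
Log2 ratios of the 3 members between EV libraries (left, serum Con A over serum saline EVs; right, RAW Con A over RAW saline EVs), under 4 choices of what levels are relative to; no replicates, so no error bars. In the serum pair miR-29a-3p lies at -1.03 relative to all miRNA reads and between 1.07 and 1.26 under the other 3 choices, while in the RAW pair its 4 values lie above 0 and those of miR-29b-3p below 0.

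Between the RAW EV libraries the point ratios of miR-29a-3p and miR-29b-3p lay on opposite sides of 1. miR-29a-3p had a ratio of 1.22 (1.01 to 1.48), RAW Con A EVs over RAW saline EVs, and a log2 ratio of 0.74 without miR-122-5p and miR-148a-3p, against 0.29 with all reads. miR-29b-3p had a ratio of 0.426 (0.168 to 0.997) from 9 reads in RAW Con A EVs and 18 in RAW saline EVs. Its log2 ratio was -0.78 without those 2 miRNAs, against -1.23 with all reads. The interval by all reads ended just below 1, and none was computed without those 2 miRNAs. Whether miR-29b-3p differed between the 2 libraries is therefore uncertain. miR-29c-3p, with 2 and 1 reads, gave no usable ratio. Of 134 miRNAs with at least 50 reads in this pair, 53% were past 2-fold in either direction, and the only member among them, miR-29a-3p, was not.

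By EV source, miR-29a-3p was higher in serum EVs under each scaling tried. Serum saline EVs over RAW saline EVs gave a ratio of 3.07 (2.61 to 3.63), in a pair where 36.8% of 144 miRNAs were past 2-fold higher and the median ratio was 1.13. The log2 ratio was 1.62 by all reads and between 1.12 and 1.94 under the other scalings. Serum Con A EVs over RAW Con A EVs gave 1.23 (1.07 to 1.41) by all reads, with a median ratio of all miRNAs of 0.242 and 10.8% of 120 miRNAs past 2-fold higher. Without miR-122-5p and miR-148a-3p this log2 ratio was 2.27, against 0.30 with all reads. miR-29b-3p had ratios of 0.917 (0.456 to 1.85) in the saline pair and 1.66 (0.786 to 3.91) in the Con A pair by all reads. The log2 ratio of miR-29b-3p was 0.20 in the saline pair without miR-122-5p and miR-148a-3p, against -0.12 with all reads, and in the Con A pair it was 2.59 to 2.78 under the other 3 scalings, against 0.73.

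miR-29a-3p had a lower CPM in both RAW EV libraries than in the PBS cells, which had all been treated with Con A. In RAW Con A EVs it had 2002 CPM, against 7055 ± 429 CPM in PBS cells (SD, n = 3), which is 3.52-fold lower. In this setting 45.7% of 199 miRNAs were past 2-fold lower in the EVs, and the median ratio was 0.561. Relative to the reads without miR-122-5p and miR-148a-3p the ratio of miR-29a-3p was 0.397, in place of 0.284. In RAW saline EVs, where those 2 miRNAs held 2.26% of reads, miR-29a-3p had 1638 CPM, 4.31-fold below PBS cells, with 44.9% of 196 miRNAs past 2-fold lower. miR-29b-3p had 66.7 CPM in RAW Con A EVs and 157 CPM in RAW saline EVs, against 255 ± 26.1 CPM in PBS cells, which are ratios of 0.261 and 0.615. The pooled counting intervals of these ratios, 0.118 to 0.507 and 0.358 to 0.998, overlap. Without miR-122-5p and miR-148a-3p the ratio in RAW Con A EVs was 0.366. miR-29c-3p had 14.8 CPM in RAW Con A EVs and 8.71 CPM in RAW saline EVs, both under the level of 3 reads, against 27.9 ± 4.29 CPM in PBS cells. EV RNA and cell RNA were extracted with different kits, per the labels, so the kit and the source cannot be told apart. RAW saline EVs came from cells given saline, so for them Con A treatment cannot be told apart from kit and source either.

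**Figure D4:**
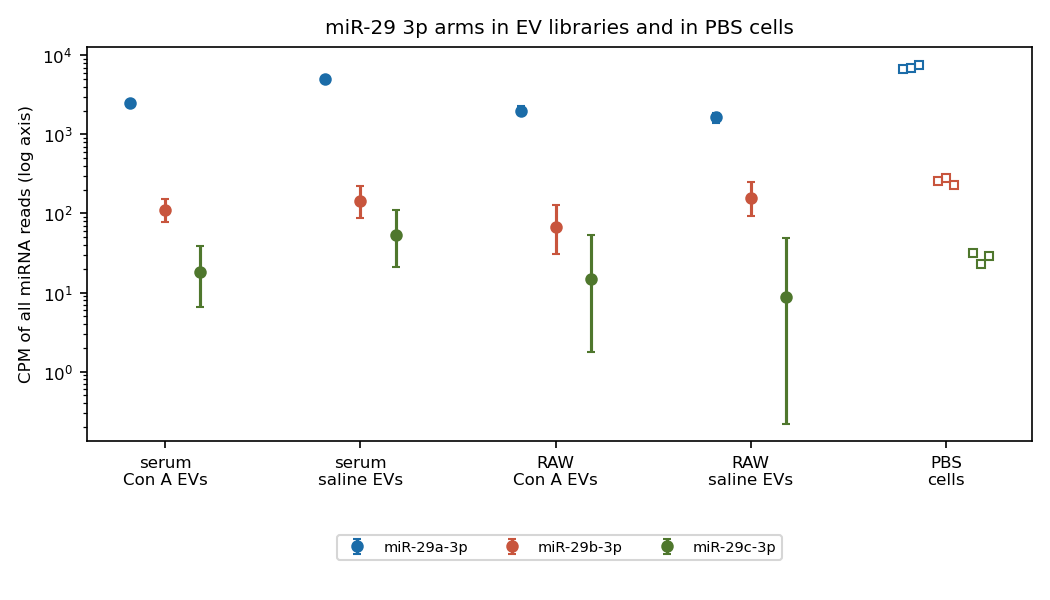
CPM of the 3 members in the 4 EV libraries (filled circles, 1 library each, with exact 95% counting intervals) and in the 3 PBS cell libraries (open squares), on a log axis. miR-29a-3p lies at 2459, 5025, 2002 and 1638 CPM from left to right in the EVs and at a mean of 7055 CPM in PBS cells, and the intervals of miR-29c-3p are wide because it rests on 1 to 7 reads.

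Within the EVs the share of miR-29a-3p was close to that of cells in 3 of 4 libraries. miR-29a-3p held 95.03% (Wilson 95% interval 93.4 to 96.3) of the 865 family reads in serum Con A EVs, 96.2% (94.5 to 97.4) of 690 in serum saline EVs and 96.1% (93.1 to 97.8) of 281 in RAW Con A EVs. In RAW saline EVs it held 90.8% (86.1 to 94.0) of 207 reads, below the range of the 12 cell libraries, and miR-29b-3p held 8.70% (5.57 to 13.3). The share of miR-29a-3p in serum Con A EVs was also just below the lowest cell share, 95.3%. miR-29c-3p held 0.694% in serum Con A EVs, 1.01% in serum saline EVs and 0.712% in RAW Con A EVs, on 6, 7 and 2 reads. These lay above its 0.185% to 0.596% in the cell libraries. Their Wilson 95% intervals, 0.318 to 1.51, 0.492 to 2.08 and 0.195 to 2.56, overlap that range. In RAW saline EVs miR-29c-3p held 0.483%, on 1 read, which is within the range of cells. The shares rest on 1 library each and were not tested.

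The 5p arms of the 4 hairpins show which strand of each precursor was read. They are printed with bases 2 to 8 in capitals, and none shares the seed of the 3p arms.
miR-29a-5p: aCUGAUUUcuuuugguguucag
miR-29b-1-5p: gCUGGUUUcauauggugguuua
miR-29b-2-5p: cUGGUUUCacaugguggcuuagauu
miR-29c-5p: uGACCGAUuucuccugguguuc
The share of reads on the 5p arm differed widely between hairpins, though how efficiently each arm entered the library was not measured. In the 12 cell libraries together, miR-29a-5p had 22 reads, 0.0979% (exact 95% interval 0.0614 to 0.148) of both arms of Mir29a. miR-29c-5p had 74 reads beside 102 of miR-29c-3p, 42.0% (34.7 to 49.7) of both arms of Mir29c. The 2 miR-29b hairpins can be told apart only by their 5p arms, and miR-29b-1-5p and miR-29b-2-5p had 33 reads each, together 7.28% (5.68 to 9.18) of all miR-29b reads.

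miR-29b-1-5p, from the chromosome 6 cluster, was read mainly in RAW saline EVs among the EV libraries. It had 18 reads there (157 CPM), as many as miR-29b-3p in that library, against 2 reads in RAW Con A EVs, 0 in serum Con A EVs and 0 in serum saline EVs, where 3 reads would be 8.97 and 22.7 CPM. Set against the 9.71 CPM of the 12 cell libraries together, the ratio in RAW saline EVs was 16.2 (8.56 to 29.5) by all reads and 16.5 without miR-122-5p and miR-148a-3p. The interval covers counting error only, and the ratio sets 18 reads of 1 EV library against 33 pooled cell reads. All those cells had received Con A and their RNA was extracted with another kit, so kit, treatment and source cannot be told apart. How many other miRNAs had such a ratio is not given here. RAW Con A EVs over RAW saline EVs gave a ratio of 0.0946 (0.0106 to 0.395) from 2 and 18 reads by all reads, and 0.129 without those 2 miRNAs. miR-29b-2-5p had 1 read in RAW saline EVs and 0 in the other 3 EV libraries. The hairpin of miR-29b-1-5p is printed whole, as RefSeq gives it on the minus strand of chromosome 6, with the 5p and then the 3p arm in capitals.
Mir29b-1: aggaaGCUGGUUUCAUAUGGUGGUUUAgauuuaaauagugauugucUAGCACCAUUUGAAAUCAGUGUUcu

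The miRNAs most like each member were taken by the root mean square difference of centred log2(CPM + 1) values over 8 conditions, the 4 cell group means and the 4 EV libraries, among 139 miRNAs. For miR-29a-3p these were miR-148b-3p (0.333), miR-142a-5p (0.506) and let-7a-1-3p (0.548), where the median of all candidates was 1.30. miR-29b-3p lay at 0.491 and miR-29c-3p at 0.459 from miR-29a-3p, each with 1 candidate outside the family closer to miR-29a-3p. For miR-29b-3p the nearest were miR-125a-5p (0.442), miR-142a-5p (0.500) and let-7a-1-3p (0.503), and for miR-29c-3p they were miR-181a-5p (0.392), miR-200c-3p (0.497) and miR-101b-3p (0.604). miR-29b-3p and miR-29c-3p were further from each other, at 0.728, than either from miR-29a-3p. All 8 conditions share the scaling to total reads, and the values of miR-29c-3p in EVs rest on 1 to 7 reads.

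2 lists give the family's neighbours by function. Of 3 miRNAs known to target DNA methyltransferases, as miR-29 does (miR-148a-3p, miR-148b-3p and miR-152-3p), 2 were tested in cells, and miR-148a-3p was higher in serum Con A EV cells, RAW Con A EV cells and RAW saline EV cells than in PBS cells. It averaged 282 ± 58.7, 57.8 ± 32.2 and 45.3 ± 9.14 CPM in those groups and 17.6 ± 8.24 CPM in PBS cells (SD, n = 3 each), with log2 differences of 3.95, 1.69 and 1.38 and edgeR adjusted p of 2.7e-12, 0.0143 and 0.048. The PBS level was near the floor, since 3 reads correspond to 9.71 to 13.5 CPM in the PBS libraries, so these differences rest on few PBS reads. The share of all tested miRNAs called higher was 7.86%, 6.11% and 7.42% in these comparisons, and 17.9% in serum Con A EV cells against RAW Con A EV cells, where miR-148a-3p was higher too (log2 2.27). It was also the most abundant miRNA in both serum EV libraries, at 426086 CPM in serum Con A EVs and 120064 CPM in serum saline EVs, and reached 77074 CPM in RAW Con A EVs and 19078 CPM in RAW saline EVs. miR-148b-3p did not pass in any of the 5 comparisons, at log2 differences of 0.02, -0.01 and 0.12 from PBS cells in the same order.

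Of 12 miRNAs linked with fibrosis, 9 were tested in cells. In serum Con A EV cells against PBS cells, where 13.5% of all tested miRNAs were called lower, 1 rose (miR-122-5p, log2 3.27) and 3 fell, miR-222-3p by 0.95, miR-221-3p by 0.58 and miR-21a-5p by 0.18 on the log2 scale, with edgeR adjusted p of 7e-11, 2.2e-11, 3.5e-09 and 0.0283 for miR-122-5p, miR-222-3p, miR-221-3p and miR-21a-5p. miR-122-5p averaged 18.8 CPM in PBS cells, near the level of 3 reads there (9.71 to 13.5 CPM), so its differences from PBS cells rest on few PBS reads. The list's median was -0.06, beside 0.007 over all 229 miRNAs. In RAW Con A EV cells against PBS cells, 3 rose (miR-122-5p, miR-19b-3p and miR-21a-5p) and 1 fell (miR-222-3p), where 6.11% of all were called higher and 5.24% lower, with log2 differences of 1.83, 0.25, 0.19 and -0.44. In RAW saline EV cells against PBS cells, and in RAW Con A EV cells against RAW saline EV cells, 0 of the 9 were called, beside 14% and 3.49% of all, with list medians of -0.10 and 0.05. In serum Con A EV cells against RAW Con A EV cells, 1 rose (miR-122-5p, 1.44) and 4 fell, namely miR-221-3p (-0.56), miR-222-3p (-0.51), miR-21a-5p (-0.37) and miR-19b-3p (-0.20), where 17% of all were called lower. In the EVs, miR-21a-5p, known to promote fibrosis, had 5196 CPM in serum Con A EVs, 48097 CPM in serum saline EVs, 27928 CPM in RAW Con A EVs and 104398 CPM in RAW saline EVs, in each case above miR-29a-3p. In serum Con A EVs against serum saline EVs, 6 of the 7 fibrosis-linked miRNAs and 1 of the 3 directed at DNA methyltransferases with at least 50 reads were past 2-fold lower, beside 81.5% of all miRNAs, by all reads. Without miR-122-5p and miR-148a-3p in the totals, 2 of the 7 and 0 of the 3 were past 2-fold lower, beside 27.4% of the 124 miRNAs. Past 2-fold higher were 1 of the 7, miR-122-5p itself, and 3 of the 3, among them miR-148a-3p itself, beside 21.8%. By all reads miR-122-5p (392037 against 99538 CPM) and miR-148a-3p (426086 against 120064 CPM) were past 2-fold higher already. Leaving them out of the totals could only raise them, so their place among these counts was fixed in advance.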

How the data were processed

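The authors deposited raw counts, whole reads per mature mouse miRNA name, for 12 cell and 4 EV libraries, and normalized signal values in 5 other tables. Of these, the 2 EV tables were used, where each deposited signal value is the count divided by 1 whole number per library, as tested on the values. Of tools, the submitters' processing notes name edgeR, with no version. The sources used here give no aligner, annotation or build. Libraries were NEBNext small RNA, 51 bp single reads, per the labels' protocols.

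Tests on the cell counts ran in edgeR 4.0.16 (R 4.3.3): filterByExpr (229 miRNAs kept), TMM, 1 quasi-likelihood fit to 12 libraries, 2-sided, Benjamini-Hochberg within each comparison. DESeq2 1.42.0, other scalings, no filter, only the groups compared and a replicate block were alternatives. EV levels are CPM of all miRNA reads. The text names the 3 members, their 5p arms, the 3 nearest miRNAs of each and the list members that passed. Members and lists were chosen with earlier results of these data known. All 7 miR-29 names matched RefSeq. The fit was checked on simulated counts.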

Additional observations from a re-analysis of the deposited data

Results flagged for a closer look

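The log2 ratio of miR-29a-3p was -1.03 in serum Con A EVs against serum saline EVs and 0.29 in RAW Con A EVs against RAW saline EVs, so Con A went with opposite directions in the 2 EV sources. Each value compares 1 library with 1 library, and the difference between them was not tested. In the serum pair the direction turned when miR-122-5p and miR-148a-3p were left out of the total (1.07), and in the RAW pair the value became 0.74, so both were then above 0.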

How the results depend on the processing

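Over 18 results of the members in cells and 245 refits, 207 kept direction and side of the threshold, 33 turned sign and 5 passed the threshold. With upper-quartile scaling, miR-29a-3p passed for serum Con A EV cells against PBS cells (-0.22, adjusted p 0.0186, edgeR) and over the 4 groups (adjusted p 0.0435), miR-29b-3p turned to -0.00089 for RAW Con A EV and -0.0496 for RAW saline EV cells against PBS cells, and calls for RAW Con A EV against RAW saline EV cells were 4, against 8. With library size alone, miR-29a-3p passed for RAW saline EV cells against PBS cells (-0.18, adjusted p 0.0429); miR-29b-3p turned to -0.10, -0.068 and -0.032 for RAW Con A EV and RAW saline EV cells against PBS cells and for RAW Con A EV against RAW saline EV cells; serum Con A EV against RAW Con A EV cells turned to 0.082, 0.095 and 0.117 for miR-29a-3p, miR-29b-3p and miR-29c-3p; and calls were 51, against 32, for RAW saline EV cells against PBS cells and 5, against 8, for RAW Con A EV against RAW saline EV cells. In the last comparison miR-29b-3p also turned, to -0.019 with DESeq2 size factors, -0.016 with no filter, -0.015 with DESeq2 and -0.010 with only the 2 groups, and calls were 4 with DESeq2 and 3 with only the 2 groups. With no filter, calls for RAW Con A EV cells against PBS cells were 16, against 26. The cause was not tested.

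Leaving out each library in turn gave, for serum Con A EV cells against PBS cells, -0.19 to -0.10 (miR-29a-3p), -0.19 to 0.066 (miR-29b-3p), -0.12 to 0.49 (miR-29c-3p) and 33 to 48 calls; for RAW Con A EV cells against PBS cells, -0.065 to 0.023, -0.055 to 0.12, 0.049 to 0.50 and 10 to 17 calls, with each of the 6 omissions, against 26; for RAW saline EV cells against PBS cells, -0.097 to -0.015, -0.0505 to 0.20, -0.22 to 0.33 and 23 to 35 calls; for RAW Con A EV against RAW saline EV cells, -0.0097 to 0.064, -0.16 to 0.072, -0.11 to 0.49 and 1 to 8 calls; and for serum Con A EV against RAW Con A EV cells, -0.20 to -0.071, -0.22 to 0.024, -0.39 to 0.23 and 56 to 72 calls. Over the 4 groups the adjusted p of miR-29a-3p was 0.0448 to 0.593 (0.0448 without replicate 1 of the RAW Con A EV cells), with 77 to 93 calls. The shares of the members kept adjusted p of 0.885 to 0.998.

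No pairing of libraries by replicate number was found: in 18 same-numbered pairs r was -0.21 to 0.20, and 1 of 12 libraries correlated best with its own number. Deviations from means of 3 libraries could miss a weak pairing. With a replicate block, miR-29a-3p was -0.15 for serum Con A EV cells against PBS cells and 50 miRNAs were called, against 49; no call of a member changed.

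In EVs, of 45 alternatives for 15 ratios, 22 stayed within the counting interval, 15 moved further, among them 4 of miR-29b-3p that turned sign in the serum pair, and 8 others turned sign. Of the 22, 1 turned sign within that interval: miR-29b-3p in serum saline against RAW saline EVs was 0.20 without miR-122-5p and miR-148a-3p, against -0.12. For serum Con A against serum saline EVs, leaving out the 10 most abundant miRNAs, TMM, the authors' deposited table and leaving out miR-122-5p and miR-148a-3p (chosen after seeing the data) gave log2 ratios of 1.26, 1.14, 6.29 and 1.07 for miR-29a-3p, 1.91, 1.79, 6.94 and 1.72 for miR-29b-3p, and 0.73, 0.60, 5.75 and 0.54 for miR-29c-3p. All of these but the authors' table gave 1.12, 1.37 and 1.94 for miR-29a-3p in serum saline against RAW saline EVs, and 2.34, 2.16 and 2.27 for miR-29a-3p and 2.78, 2.59 and 2.70 for miR-29b-3p in serum Con A against RAW Con A EVs. Leaving out miR-122-5p and miR-148a-3p gave 0.74 for miR-29a-3p in RAW Con A against RAW saline EVs and -1.33 in RAW Con A EVs against PBS cells. A minimum of 10 reads, in place of 50, put 181, 126, 180 and 165 miRNAs past 2-fold in the 4 EV pairs, in the order serum, RAW, saline and Con A. With a pseudocount of 10, 3, 2 and 2 of the 3 nearest miRNAs of miR-29a-3p, miR-29b-3p and miR-29c-3p were kept. Depth limits miR-29c-3p throughout and miR-29b-3p in EVs.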
